A study of Homo sapiens
Mus musculus with 16 samples.

Results

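Among the 8 tumours of this xenograft series that were treated with nab-paclitaxel, 4 held the human gene ENSG00000137868 at 100 CPM or more (CPM, counts of a gene per 1000000 counts of its library) of all human counts and 4 held it below that level. The 2 classes were therefore chosen by a measured value, the level of 1 human gene, and not by a label. They are called the high class and the low class below. The high class is nab-paclitaxel 1 and 4 and combination 1 and 3, and the low class is nab-paclitaxel 2 and 3 and combination 2 and 4, so each class holds 2 tumours of each treatment. The series holds 16 tumours in all. No tumour size or other measure of drug response was used here, so the classes are described by their RNA alone and are not called responses.

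All tumours grew from MDA-MB-231, a human triple-negative breast cancer cell line, in the mammary fat pad of Balb/c nude mice. Each mouse was given 2 M cells (M, 1000000) in 50 µl of PBS and Matrigel, and tumours were taken out on day 50. The 4 treatments, with 4 mice each, were vehicle, nab-paclitaxel (Abraxane) at 30 mg/kg on days 15, 22 and 29, phenelzine at 40 mg/kg daily from day 15, and the combination of both drugs at these doses and days. All drugs were injected into the peritoneum, and 1 mRNA library was read per tumour. Cells came from 1 line, and nude mice lack a thymus and so have few mature T cells. No age of the mice was given.

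Paclitaxel binds the beta subunit of tubulin and stabilises microtubules, which holds dividing cells in mitosis. In nab-paclitaxel the drug is bound to albumin particles, and phenelzine inhibits monoamine oxidases. In a xenograft the cancer cells are human and the stroma, vessels and immune cells are mouse, so a matrix of human counts and a matrix of mouse counts from the same library describe tumour and host side by side. Whether each read went to the right species was not tested.

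The files give Ensembl gene IDs with no symbols, and the reference table at hand matched 0 of the human IDs and covers no mouse genes. Genes are therefore described as groups by direction and level, and 4 IDs are printed, 1 higher and 1 lower gene per matrix. The 51 gene lists meant for cell types and pathways, and the markers of the cell line and of host cells, could not be looked up. Whether reads of the printed IDs could also come from similar or overlapping genes was not assessed.

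The class gene was set apart by more than 5-fold between the classes. In the high class ENSG00000137868 stood at 282 CPM of the human total in nab-paclitaxel 1, 178 in nab-paclitaxel 4, 122 in combination 1 and 290 in combination 3. The low class held 11.8 CPM in nab-paclitaxel 2, 22.2 in nab-paclitaxel 3, 1.99 in combination 2 and 8.74 in combination 4. The library just inside the boundary, combination 1, lay 5.51-fold above the library just outside it, nab-paclitaxel 3. No library lay between 22.2 and 122 CPM, so a boundary at 50 CPM gives the same classes, while a boundary at 200 CPM would move 2 libraries to the low class.

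Low-class tumours did not stand at the level of tumours without nab-paclitaxel. The 8 libraries of the vehicle and phenelzine groups held the class gene at 0.092 to 0.38 CPM, with a median of 0.191, from 3 to 9 counts each. The lowest low-class library, combination 2, was 5.25-fold above the highest of these 8, and the lowest high-class library was 322-fold above it. Spread within the low class was wide, 11.1-fold from lowest to highest, against 2.37-fold in the high class. With both matrices together as the total, the class gene ran from 35.2 to 128 CPM in the high class and from 1.05 to 17.5 CPM in the low class, so the classes did not overlap on that scale either. These values chose the classes and are given with no test.

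Host RNA made up more of the high-class libraries. The mouse share, the percentage of all counts that lie in the mouse matrix, was 59.7% in nab-paclitaxel 1, 41.9% in nab-paclitaxel 4, 71.2% in combination 1 and 55.9% in combination 3. Low-class shares were 23.4% in nab-paclitaxel 2, 21.0% in nab-paclitaxel 3, 47.4% in combination 2 and 18.6% in combination 4. The classes overlapped in 1 pair, since combination 2 of the low class lay above nab-paclitaxel 4 of the high class. Means were 57.2% ± 12.1 in the high and 27.6% ± 13.3 in the low class (SD, n = 4 each), a difference of 29.6 percentage points. It was 28.6 points within nab-paclitaxel alone and 30.5 within the combination. The 8 libraries without nab-paclitaxel ran from 9.25% to 37.8%, with vehicle 2 at the top. The mouse share was known when the classes were proposed and is given with no test. In bulk tissue, fewer cells of a species and less RNA per cell cannot be told apart.

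**Figure D1:**
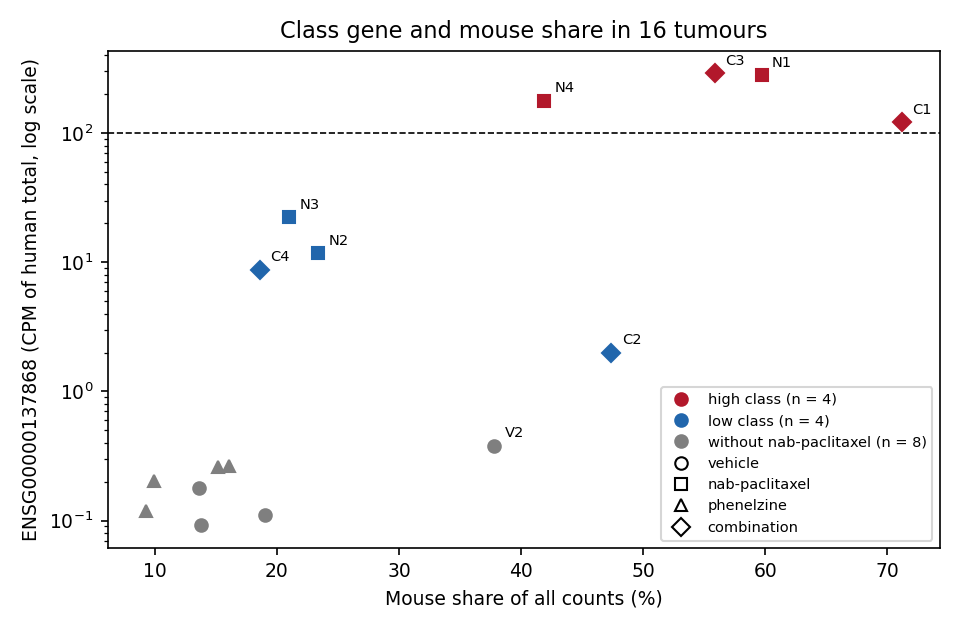
Level of ENSG00000137868 in CPM of the human total (log axis) against the mouse share of all counts in percent, 1 point per library, with colour for the class and shape for the treatment; the dashed line is the boundary of 100 CPM. The 4 high-class libraries lie between 122 and 290 CPM, and combination 2 (C2) joins a mouse share of 47.4% with 1.99 CPM.

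Mouse share and class gene did not order the libraries alike. Combination 1 had the highest mouse share of all, 71.2%, and the lowest class gene level of the high class. Combination 2 had a mouse share of 47.4%, above that of nab-paclitaxel 4, and the lowest class gene level of all 8 libraries with nab-paclitaxel. Vehicle 2, at 37.8%, held the class gene at 0.38 CPM. With totals of 11.1 to 23.8 M human counts in the high and 21.6 to 32.7 M in the low class, and 17.2 to 27.4 M against 6.60 to 19.5 M mouse counts, the tumour was read less deeply and the host more deeply in the high class. Both totals together were alike, 36.3 to 40.9 M and 35.4 to 42.6 M. Libraries of the same treatment were distinct, with a chi-square per degree of freedom between any pair of 39.1 or more over human and 13.1 or more over mouse genes.

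In the tumour compartment the classes differed broadly, and with a 2-fold rule more genes were higher than lower in the high class. A human gene was counted as differing where all 4 libraries of 1 class lay above all 4 of the other and the class means differed by at least 2-fold, after adding 0.5 CPM to each mean. CPM here and below are scaled by TMM (trimmed mean of M-values), which corrects for differences in RNA composition. Of 16758 human genes that passed the filter on low counts, 1407 were higher in the high class, 8.4% of them, and 643 were lower, 3.84%. By no overlap alone, without the 2-fold rule, the split of the 16758 was near even, with 2980 higher and 2974 lower. Since the classes come from a human gene of the same libraries, these counts describe the classes and have no test.

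Differences in the tumour genes were large among the genes counted. The median log2 difference was 1.52 for the genes that were higher and -1.35 for those that were lower, against a median absolute log2 difference of 0.36 over all genes. A 4-fold difference was passed by 387 higher and 76 lower genes, and an 8-fold difference by 104 and 12. The class gene itself, with a log2 difference of 4.13, was 17th in order, so 16 other human genes were further up in the high class than the gene that defined it. In 386 human genes the lowest high-class library was at least 2-fold above the highest low-class library, and in 53 it was the reverse.

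The tumour genes were also counted by their level in the low class. The filter ran over the 8 libraries, so a gene little expressed in the low class could pass it through the high class alone, and the share of higher genes in the lowest bins is in part set by this and by binning on 1 side of the difference. Among human genes with a low-class mean under 1 CPM, 575 of 2426 were higher (23.7%), and of those at 1 to 10 CPM 522 of 4162 (12.5%). At 10 to 100 CPM it was 272 of 7724 (3.52%), and over 100 CPM 38 of 2446 (1.55%). Lower genes numbered 172 (4.13%), 339 (4.39%) and 132 (5.4%) in the last 3 of these bins. The bin under 1 CPM held 0 lower genes, where the added 0.5 CPM leaves little room for a lower value.

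In the human genes counted as differing, the high class lay far from tumours that had no nab-paclitaxel and the low class near. The choice of these genes leaves out genes that moved alike in both classes. Higher genes could also pass the filter through the high class alone. For each library the median over the 1407 higher genes of the log2 level over the mean of the 8 libraries without nab-paclitaxel was taken. It was 1.90 in nab-paclitaxel 1, 1.33 in nab-paclitaxel 4, 1.76 in combination 1 and 1.86 in combination 3. Low-class values were 0.17 in nab-paclitaxel 2, 0.45 in nab-paclitaxel 3, -0.12 in combination 2 and 0.31 in combination 4. The 8 libraries without the drug ran from -0.13 to 0.05. Thus 3 of the 4 low-class libraries lay above all 8, by a small margin, and combination 2 lay among them. These genes took 4.48% to 6.89% of human counts in the high class, 1.27% to 2.22% in the low class and 1.32% to 1.77% without the drug.

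For the 643 human genes that were lower, the same medians were -1.77 in nab-paclitaxel 1, -0.80 in nab-paclitaxel 4, -1.76 in combination 1 and -1.69 in combination 3. The low class held 0.00 in nab-paclitaxel 2, -0.16 in nab-paclitaxel 3, 0.10 in combination 2 and -0.21 in combination 4, and the libraries without the drug ran from -0.16 to 0.10. Nab-paclitaxel 4, which has the lowest mouse share of the high class, lay nearest to the low class in both sets. The 2 libraries outside the high class with the largest mouse shares, combination 2 and vehicle 2, stood at -0.12 and 0.01 for the higher genes and at 0.10 and -0.04 for the lower genes; the side on which combination 2 lies is fixed by the choice of the genes. Over all human genes the medians of the 16 libraries lay between -0.06 and 0.00.

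**Figure D2:**
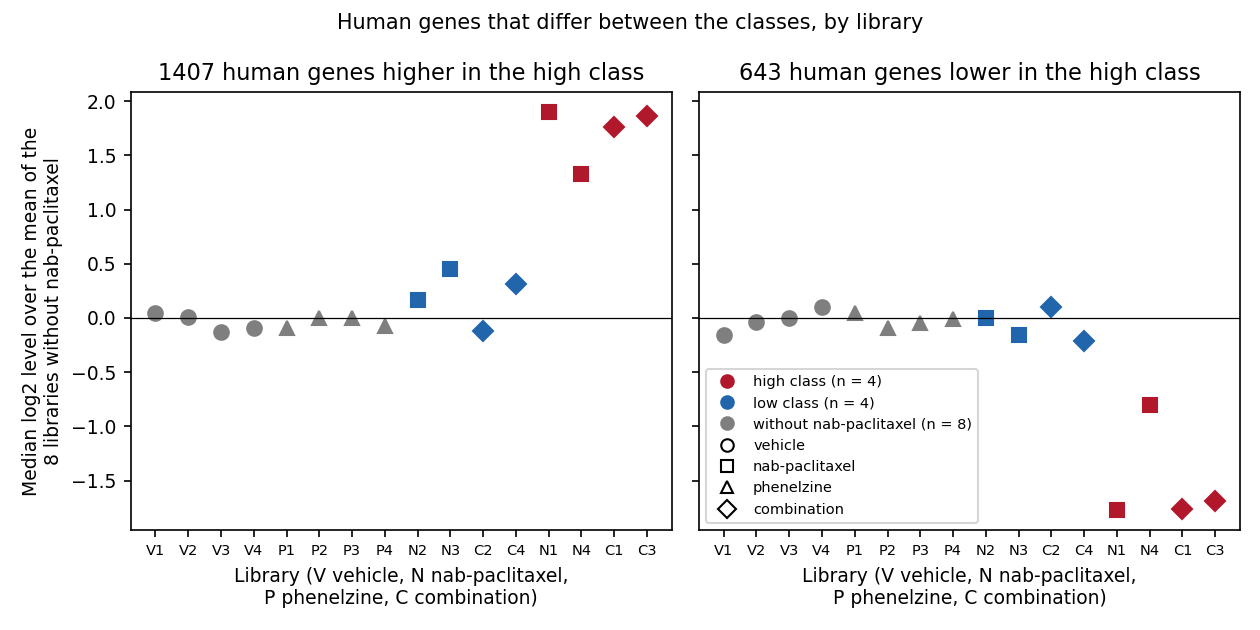
Median log2 level of the 1407 higher (left) and 643 lower (right) human genes over the mean of the 8 libraries without nab-paclitaxel, 1 point per library. The genes were chosen by the difference between the classes, so the gap between red and blue points is fixed by that choice; blue points lie near the grey ones, and nab-paclitaxel 4 (N4) is the red point nearest to them in both panels.

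Counted gene by gene, in 1261 of the 1407 higher genes (89.6%) all 4 high-class libraries lay above all 8 libraries without nab-paclitaxel, against 16.2% of all human genes. The 4 low-class libraries lay above all 8 in 116 of the 1407 (8.24%), against 1.96% of all genes. In 512 of the 643 lower genes (79.6%) the high class lay below all 8, against 15.8% of all genes, while the low class lay below all 8 in 10 (1.56%), near the 1.28% of all genes. Both sets were chosen by the class difference, and higher genes could pass the filter through the high class alone. The high-class shares are therefore in part set by that choice.

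Each treatment was also taken alone, so that different mice stand on either side. Within nab-paclitaxel alone, 2 high-class tumours against 2 low-class tumours, 1312 human genes were higher by the same rule, and in the combination 96.7% of them were also higher on average, against 49.1% of all genes. By the full rule 1067 of the 1312 (81.3%) differed there too, against 11.3% of all genes, with a median log2 difference of 1.74. Of the 1890 genes that were higher within the combination, 56.5% were among those 1067, against 7.83% of all genes. For lower genes, 408 of the 619 found in nab-paclitaxel alone (65.9%) and of the 1151 found in the combination (35.4%) were found in both, against 6.87% and 3.69% of all genes. The filter on low counts ran over the 8 libraries of both treatments together. Higher genes little expressed in the low class could pass it through the high-class libraries of both treatments alone. That in part sets the shares of the higher genes. The same gene set the class in both treatments, and these shares are a description with no test.

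Of the human genes that differed and had at least 5 CPM in 1 class, ENSG00000066056 was furthest below the low class. It stood at 0.297 CPM in nab-paclitaxel 1, 2.22 in nab-paclitaxel 4, 0.457 in combination 1 and 0.615 in combination 3, from 5, 56, 5 and 11 counts. The low class held 7.22 CPM in nab-paclitaxel 2, 18.7 in nab-paclitaxel 3, 29.7 in combination 2 and 16.8 in combination 4. The classes did not overlap, and nab-paclitaxel 4 lay highest within the high class. Libraries without nab-paclitaxel ran from 15.9 to 56.1 CPM with a median of 26.0, so all but nab-paclitaxel 2 of the low class lay within their range. Means were 0.898 ± 0.892 CPM in the high and 18.1 ± 9.22 in the low class (SD, n = 4 each), a log2 difference of -3.74, with -2.94 within nab-paclitaxel alone and -4.52 within the combination.

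In the host compartment fewer genes differed, and more of those that passed the test fell than rose. Mouse counts took no part in choosing the classes, so mouse genes were tested with edgeR's quasi-likelihood F test over the 8 libraries, with phenelzine as a covariate and Benjamini-Hochberg adjustment over all mouse genes tested. Of 15957 mouse genes, 9 rose in the high class (0.0564%) and 93 fell (0.583%) at an adjusted p under 0.05. At an unadjusted p under 0.05 the split was nearer to even, with 928 up and 1200 down. The p-values take the classes as given, although they were proposed with earlier results of both matrices known. By the rule used for the tumour genes, no overlap and 2-fold, 85 mouse genes were higher (0.533%) and 287 lower (1.8%), so by the same count the host differed in 372 genes and the tumour in 2050. The median absolute log2 difference over all genes was 0.20 for the mouse and 0.36 for the human matrix. The classes were chosen by a human gene, so neither pair of values compares the 2 matrices on equal terms.

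The level of the host genes that fell was set beside that of all mouse genes tested. Of the 15957 tested, 8430 had a low-class mean of 10 to 100 CPM and 2194 a mean over 100 CPM. Class means of the 93 genes that fell had a median of 28.7 CPM in the low and 8.85 CPM in the high class. In the low class 82 of the 93 stood at 10 CPM or more. Of the 93 genes, 85 fell at least 2-fold and 21 at least 4-fold. The log2 fold changes of the 93 had a median of -1.40 and a range of -5.93 to -0.61. The 9 that rose had a median of 1.81 and a range of 0.87 to 3.21, with 7 past 2-fold. In all 102 genes the libraries of the classes did not overlap, as in 594 higher and 735 lower genes of the 15957 tested. Within nab-paclitaxel alone and within the combination the median log2 difference was -1.48 and -1.26 for the genes that fell, and 1.78 and 1.82 for those that rose. The genes were called over both treatments together and do not overlap, which fixes the sign within each treatment.

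**Figure D3:**
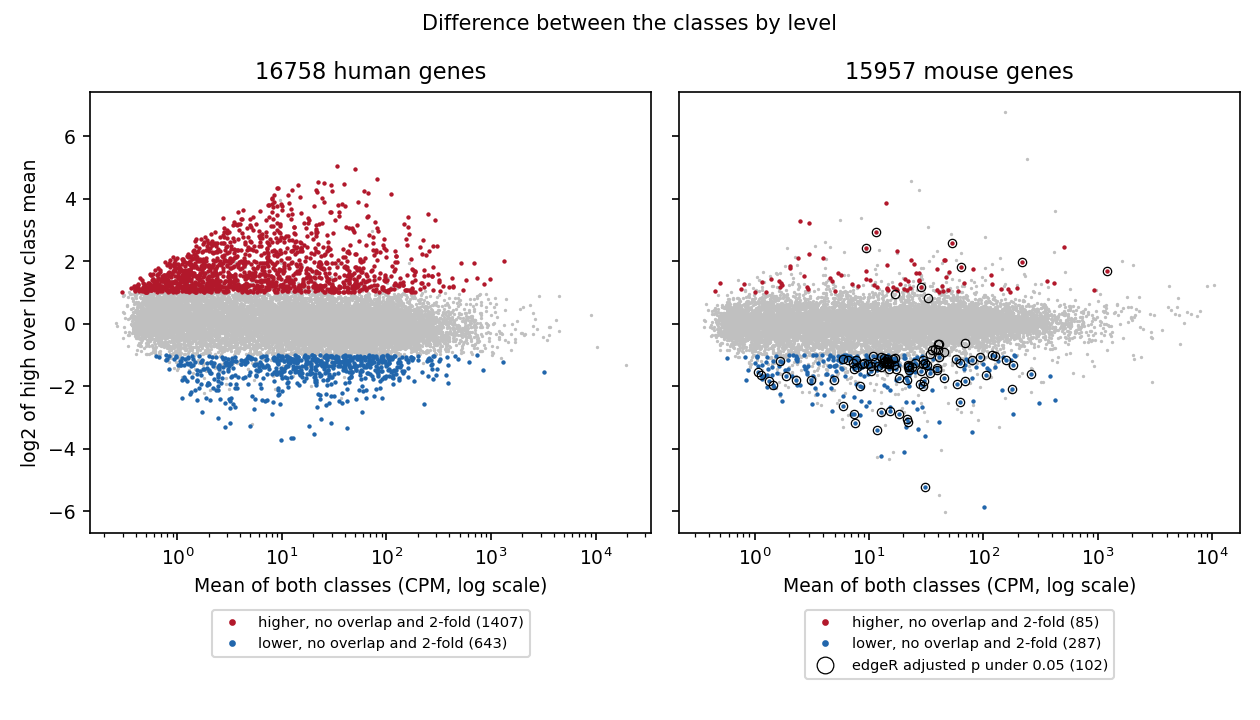
log2 of the high over the low class mean (0.5 CPM added to each) against the mean of both classes in CPM (log axis), 1 point per gene, for human (left) and mouse (right) genes. Coloured points differ without overlap and by 2-fold, and black rings mark the 102 mouse genes past edgeR's threshold; human genes were not tested.

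The number of these host calls changed when single libraries were left out. Such runs also hold fewer mice, and how much of the change comes from that was not tested. Without combination 2, the low-class library with the large mouse share, edgeR called 298 mouse genes, 95 of them among the 102. Without combination 1 it called 63, of which 26 were higher and 37 lower, without nab-paclitaxel 4 it called 8, and without nab-paclitaxel 1 it called 1. Without any 1 of nab-paclitaxel 2, nab-paclitaxel 3, combination 3 or combination 4 edgeR called 0, with 1629, 1555, 1904 and 2020 genes at an unadjusted p under 0.05, against 2128 with all 8 libraries. DESeq2 called 1000 mouse genes and limma's voom with quality weights 340, and each of these lists held all 102. When the mouse share was added as a covariate edgeR called 0, although 2777 had an unadjusted p under 0.05.

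The levels of these host genes were set beside the mouse share. The median log2 level of the 93 genes that fell, over the mean of the 8 libraries without nab-paclitaxel, was -1.58 in nab-paclitaxel 1, -1.72 in nab-paclitaxel 4, -1.72 in combination 1 and -1.57 in combination 3. Low-class values were -0.21 in nab-paclitaxel 2, -0.29 in nab-paclitaxel 3, -0.49 in combination 2 and -0.24 in combination 4. Outside the high class the libraries with the largest mouse shares were the lowest 2, with combination 2 at -0.49 and vehicle 2 at -0.55, while the other 7 libraries without the drug ran from -0.33 to 0.33. The gap between the classes is fixed by the choice of these genes. The part of the mouse share in these falls was not tested beyond the covariate.

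For the 9 host genes that rose the medians were 1.68, 1.66, 1.41 and 1.86 in nab-paclitaxel 1, nab-paclitaxel 4, combination 1 and combination 3. They were 0.14, -0.14, 0.37 and -0.31 in nab-paclitaxel 2, nab-paclitaxel 3, combination 2 and combination 4. Libraries without nab-paclitaxel ran from -0.20 to 0.10, with vehicle 2 at the top of that range. In 74 of the 93 genes that fell and in 7 of the 9 that rose, the high class lay outside all 8 libraries without nab-paclitaxel, against 4.49% and 2.16% of all mouse genes below and above. The low class did so in 0 of either, where the shares of all mouse genes, 0.287% below and 0.38% above, would also give about none. Here all mouse genes are the 14986 tested genes that also passed the filter over all 16 libraries. The called genes were chosen by the class difference, which in part sets their high-class counts. In the host genes nab-paclitaxel 4 was thus not the high-class library nearest to the low class by either median, as it was in the tumour genes.

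**Figure D4:**
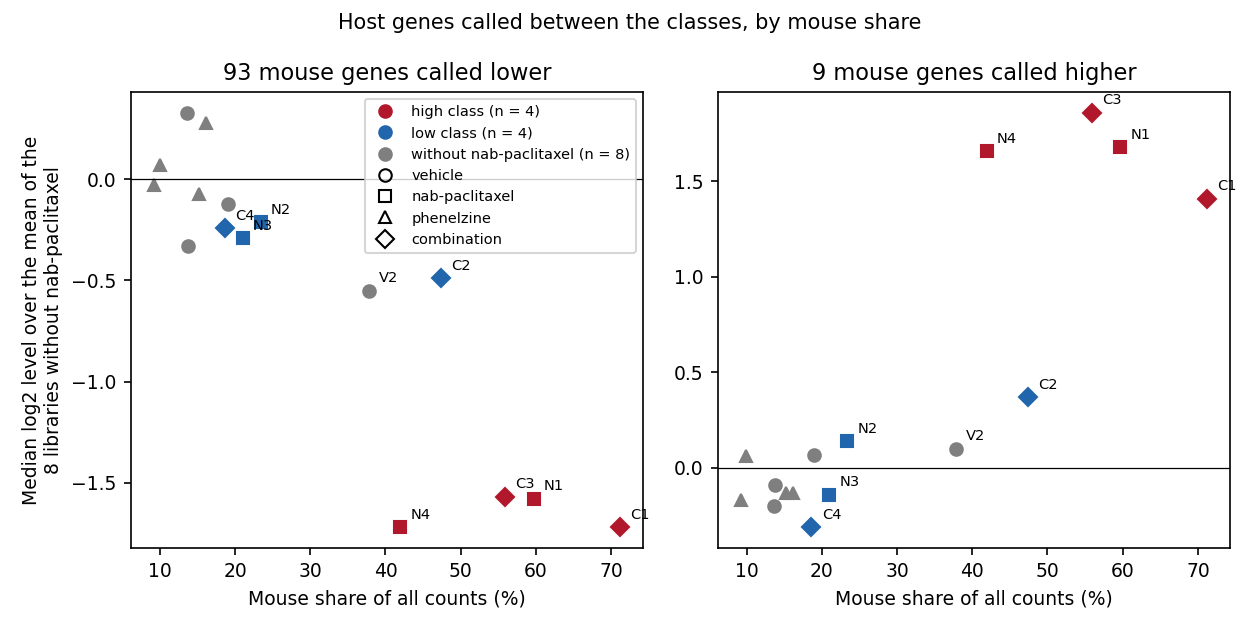
Median log2 level of the 93 mouse genes called lower (left) and the 9 called higher (right) over the mean of the 8 libraries without nab-paclitaxel, against the mouse share in percent, 1 point per library. The genes were chosen by the class difference, which fixes the gap between red and blue points; among the other points of the left panel, vehicle 2 (V2) and combination 2 (C2), with the largest mouse shares, are the lowest at -0.55 and -0.49.

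ENSMUSG00000104222 had the largest rise among the host genes called. It stood at 19.2 CPM in nab-paclitaxel 1, 25.2 in nab-paclitaxel 4, 18.8 in combination 1 and 19.8 in combination 3. The low class held 3.20 CPM in nab-paclitaxel 2, 2.82 in nab-paclitaxel 3, 1.73 in combination 2 and 1.54 in combination 4. High-class libraries were close together and far above the low class, whose levels were like those of the 8 libraries without nab-paclitaxel, 2.11 to 4.29 CPM with a median of 2.67. The means were 20.8 ± 2.99 and 2.32 ± 0.814 CPM (SD, n = 4 each), and edgeR's log2 fold change was 3.21 (SE 0.211) at an adjusted p of 0.0115. SE here and below was derived as the log2 fold change, without its sign, divided by the square root of the test's F. The edgeR call was lost without any 1 of nab-paclitaxel 2, nab-paclitaxel 3, combination 3 or combination 4, with adjusted p of 0.0691 to 0.142, and with the mouse share as a covariate (adjusted p = 0.0923), at log2 fold changes of 3.12 to 3.35.

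ENSMUSG00000047562 had the largest fall. It stood at 0.471 CPM in nab-paclitaxel 1, 2.95 in nab-paclitaxel 4, 0.499 in combination 1 and 0.581 in combination 3, from 11, 49, 13 and 12 counts. In the low class it stood at 51.9 CPM in nab-paclitaxel 2, 73.6 in nab-paclitaxel 3, 25.8 in combination 2 and 92.0 in combination 4. The classes were far apart, with nab-paclitaxel 4 the highest of the high class. Libraries without nab-paclitaxel ran from 36.4 to 384 CPM with a median of 185, and vehicle 2 stood at 39.6. Means were 1.12 ± 1.22 and 60.8 ± 28.5 CPM (SD, n = 4 each), and edgeR's log2 fold change was -5.93 (SE 0.740) at an adjusted p of 0.0342. Leaving out nab-paclitaxel 4 or combination 2 kept the edgeR call, and it was lost without any 1 of the other 6 (adjusted p of 0.0601 to 0.147). With the mouse share as a covariate the log2 fold change was -3.71 and the edgeR adjusted p 0.0923.

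**Figure D5:**
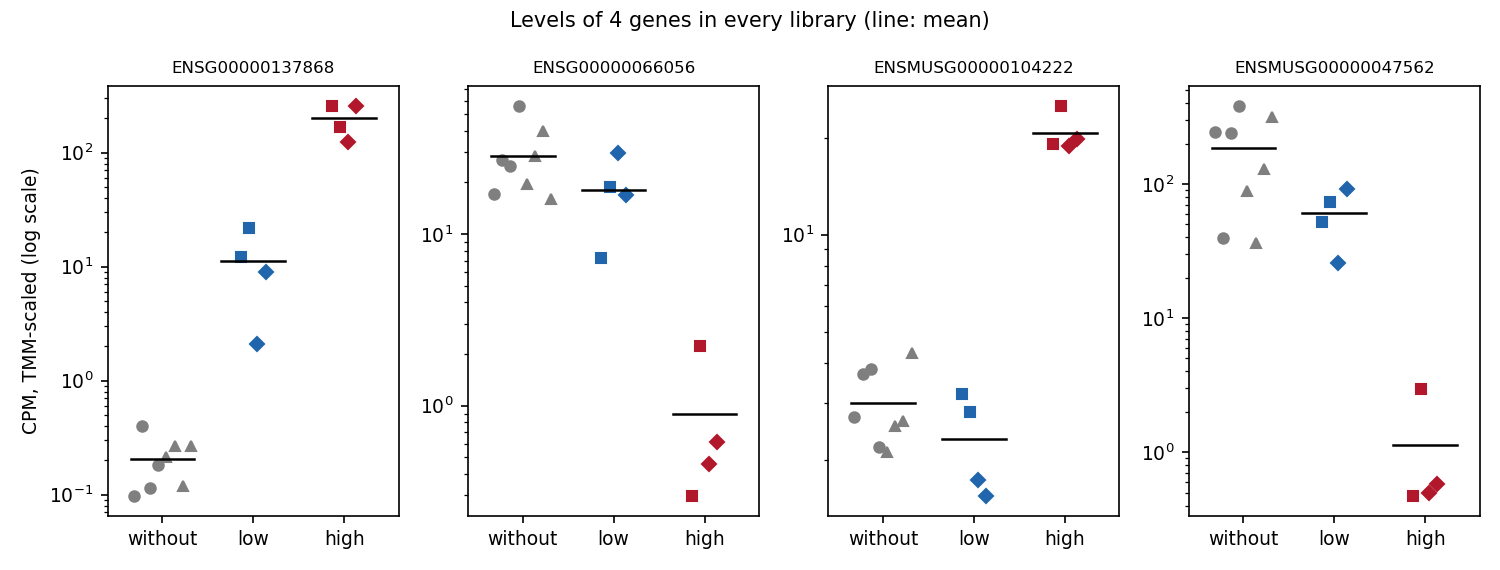
TMM-scaled CPM (log axes) of the 2 human and 2 mouse genes in libraries without nab-paclitaxel, in the low class and in the high class, 1 point per library with shapes as in the plot of class gene and mouse share, and a line at each mean. In ENSG00000066056, ENSMUSG00000104222 and ENSMUSG00000047562 the low class lies near or within the range without nab-paclitaxel, while in ENSG00000137868 it lies above that range. Low-class means lie below those without nab-paclitaxel in ENSG00000066056 (18.1 and 28.6 CPM), ENSMUSG00000104222 (2.32 and 3 CPM) and ENSMUSG00000047562 (60.8 and 185 CPM).

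Whether the class difference in the host depended on phenelzine was asked with an interaction of class and phenelzine, added after the data were seen. In edgeR 1 of 15957 mouse genes passed, with 358 at an unadjusted p under 0.05, and DESeq2 called 15. Of the 102 genes called between the classes, 4 had an unadjusted p under 0.05 in the interaction. With 2 tumours per class and treatment, a p that misses the threshold does not show that the class difference was alike in both treatments.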

How the data were processed

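RNA of 16 tumours was read as 1 paired-end mRNA library each. The authors deposited whole-number counts per Ensembl gene in a human and a mouse matrix. Trimmomatic 0.36, HISAT2 2.04, Picard, StringTie, edgeR, hg38 and mm10 are named, without role or order, per the submitters' processing notes. How reads were divided between species, and whether strand or duplicates were considered, is not given in the sources used here. Precision is limited by the depth given above, and no interval was computed.

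Treatments come from the sample titles. Classes were set at 100 CPM of ENSG00000137868 in the human column total. Members and lists were chosen with earlier results of these data known. Counts were filtered with filterByExpr (minimum count 10) over the 8 libraries and scaled by TMM. Human genes were described (0.5 CPM added, 2-fold, no overlap), and mouse genes tested with edgeR 4.0.16 in R 4.3.3 (5 residual degrees of freedom, threshold 0.05), checked on simulated data. DESeq2 1.42.0 and limma 3.58.1 were alternatives. Levels shown beside libraries without nab-paclitaxel were scaled over all 16. Each library is 1 mouse, so mice and library preparation cannot be separated. Printed IDs are the class gene and, among genes that differ (human) or pass the test (mouse) without overlap and with at least 5 CPM in the mean of 1 class, the lowest ratio of high to low class per matrix and the highest mouse ratio. Parts of the rule for named genes that need symbols could not be applied. 0 columns were left unused.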

Additional observations from a re-analysis of the deposited data

Results flagged for a closer look

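Of 42 sets of 4 libraries, each treatment and each class for 7 quantities, 6 held a library far from the other 3. About 1 in 20 sets is marked in this way by chance. In the low class combination 2 had a mouse share of 47.4%, against 18.6% to 23.4% in the other 3. In the high class nab-paclitaxel 4 stood apart in 3 genes: ENSG00000066056 at 2.22 CPM against 0.297 to 0.615, ENSMUSG00000047562 at 2.95 CPM against 0.471 to 0.581, and ENSMUSG00000104222 at 25.2 CPM against 18.8 to 19.8. In the first 2 it lay toward the low class and in the last away from it. Outside the classes, phenelzine 4 had 30.2 M human counts against 33.9 to 34.5 M, and vehicle 2 had 14.4 M mouse counts against 5.21 to 6.38 M.

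Only 1 of 15957 mouse genes passed edgeR's threshold in the interaction of class and phenelzine, with 2 tumours per class and treatment. Within nab-paclitaxel alone it stood at 15.5 and 15.5 CPM in the high class and at 65.0 and 67.9 CPM in the low class, a log2 difference of -2.06. Within the combination it stood at 19.1 and 17.7 CPM in the high class and at 4.05 and 3.57 CPM in the low class, a log2 difference of 2.13. The high-class libraries of both treatments were thus close, and the low-class libraries of the treatments lay on either side of them. The class difference without phenelzine minus that with it was -4.36 in log2 (SE 0.229), at an edgeR adjusted p of 0.0119. The test was added after the data were seen and was not run with 1 library left out, and this gene is not among the 102 called between the classes.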

How the results depend on the processing

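The count of human genes that differ, 2050, was 1964 to 2673 with 1 library left out and within 1.5 times under the other scalings, without a filter and within each treatment. It was 463 at 4-fold and 1161 with the boundary at 200 CPM, which leaves 2 libraries in the high class and puts the log2 difference of ENSG00000137868 at 2.19 in place of 4.13. The difference in mouse share stayed between 24.9 and 36.2 points with 1 library left out, within each treatment and over filtered genes only. It was not run with the boundary at 200 CPM. That boundary would put combination 1, with the highest mouse share of all (71.2%), in the low class.

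The count of 102 mouse genes was 0 to 298 with 1 library left out. It was 271 without a filter (70 higher, 201 lower), 1000 with DESeq2 (338 higher, 662 lower) and 340 with voom. In edgeR it was 0 both when the mouse share was a covariate and with the boundary at 200 CPM, with 2777 and 837 genes at an unadjusted p under 0.05; the cause was not tested. With that boundary the log2 fold change of ENSMUSG00000104222 was 1.15 (edgeR adjusted p = 0.923) in place of 3.21. The count of mouse genes was 103 with DESeq2's size factors, 128 without the phenelzine term and 116 with all 16 libraries, of which 100, 89 and 55 were among the 102. With a replicate block, by label number, edgeR called 0 mouse genes (1476 at an unadjusted p under 0.05). The labels give no source for a pairing, and the deviations of same-numbered libraries of the 2 treatments had r of 0.30, 0.10, -0.13 and 0.09 in mouse and 0.58, 0.64, -0.52 and -0.30 in human genes for numbers 1 to 4. Numbers 1 and 2 are the pairs whose libraries share a class. The mouse share without mitochondrially encoded genes was not run, since those genes could not be named.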
